A study of Homo sapiens with 5 samples.

Results

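The genes described here are those of the lysosome's proton pump and of the enzymes and membrane proteins that work in the acid it makes. The pump genes were every protein-coding row of the count table whose symbol begins with ATP6V0, ATP6V1 or ATP6AP, which gave 22 genes. The enzyme and membrane genes came from a written list of 35, of which 33 had a row used here, and CTSF and CTSZ were not analysed here. Together there were 55 genes of the 16677 in the table. The prefix rule also takes ATP6AP1L, a relative of an accessory subunit, and ATP6V1FNB, a neighbour of ATP6V1F, and neither encodes a known part of the pump.

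The libraries came from the human kidney-derived line HEK293, which is established in culture, grown under basal conditions with no treatment named. Per the labels, 2 libraries were wild type (labelled Control, called wild-type 1 and 2 here) and 3 were variants with a T-to-C mutation at rs11607019 in SIRT3, the gene of a mitochondrial deacetylase (called variant 1, 2 and 3). Counts per gene do not read a single base, so they give no check of the genotype labels. How many clones or cultures stand behind the libraries of a group is not given in the sources used here, so p-values measure only the spread between these libraries, which may be technical. The comparison asked how expression of the pump and enzyme genes differed with the variant. Library totals ran from 17122569 to 17596084 counts. Of 8 genes tied to HEK293, 5 were used, and PAX2, LHX1, VIM, KRT8 and KRT18 lay between 9.54 and 618 CPM. VIM was the highest, while PAX2 and LHX1 reached 22.0 and 21.1 CPM at most. NEFL, NEFM and CDH2 were not analysed here. Of 21 markers of macrophages, fibroblasts, hepatocytes, melanocytes and endothelium, 4 were used, with COL1A1 the highest at up to 46.3 CPM.

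The vacuolar proton pump, or V-ATPase, is a rotary motor. Its cytosolic V1 sector splits ATP, and the turning of its stalk drives a ring of proteolipid subunits in the membrane-bound V0 sector, which carries protons into the lumen. The acid activates the hydrolases that take apart proteins, glycans and lipids, and loss of single hydrolases causes lysosomal storage diseases. Many of these genes carry an E-box in their promoters, the CLEAR element, to which the transcription factors TFEB, TFE3 and MITF bind.

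The promoter windows of the genes were read first. Many lysosomal genes are known to carry the E-box, so its share among these genes is a description and not a test. RefSeq windows on GRCh38.p14, each of 300 bases from 250 before to 50 after a gene's start, were matched by symbol to 38 of the 55 genes. The palindrome TCACGTGA, the inner part of the CLEAR element and the same on both strands, was in a window of 7 of the 38 genes (18.4%). Of all 27305 genes with a RefSeq window, 321 held it (1.18%). Those are genes of all kinds and are not limited to the genes of the count table. The palindrome contains the plain E-box CACGTG, which 13 of the 38 genes held (34.2%) and 8.77% of all genes with a window. The 7 genes with TCACGTGA are printed because they hold the longer palindrome. The sequences run 5′ to 3′ on the strand of the gene, with every whole copy of the palindrome in capitals.
MCOLN1, chr19:7522542-7522623, plus strand: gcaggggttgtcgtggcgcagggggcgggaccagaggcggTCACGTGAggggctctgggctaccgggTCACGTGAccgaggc
GAA, chr17:80101464-80101551, plus strand: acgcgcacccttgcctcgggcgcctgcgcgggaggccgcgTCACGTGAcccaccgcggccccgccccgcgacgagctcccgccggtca
LAMP1, chr13:113297170-113297238, plus strand: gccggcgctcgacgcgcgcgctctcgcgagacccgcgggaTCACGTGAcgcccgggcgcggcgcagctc
CTSA, chr20:45891269-45891334, plus strand: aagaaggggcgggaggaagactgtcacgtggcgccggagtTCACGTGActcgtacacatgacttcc
CLN3, chr16:28492069-28492116, minus strand: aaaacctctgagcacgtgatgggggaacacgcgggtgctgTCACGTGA
ATP6V0D1, chr16:67481170-67481257, minus strand: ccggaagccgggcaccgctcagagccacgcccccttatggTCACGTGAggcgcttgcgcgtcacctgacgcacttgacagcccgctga
ATP6V1G1, chr9:114587670-114587757, plus strand: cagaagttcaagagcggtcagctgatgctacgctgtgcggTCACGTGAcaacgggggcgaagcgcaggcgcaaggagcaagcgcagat

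Positions are counted back from the start that each RefSeq window uses. The first base of the first copy lay 77 bases before that start for GAA, 60 for ATP6V0D1, 59 for ATP6V1G1, 42 for MCOLN1, 29 for LAMP1, 26 for CTSA and 2 for CLN3. GAA, MCOLN1 and LAMP1 held 2 copies in the window, the last beginning 32, 15 and 2 bases before the start, and those of GAA and LAMP1 run past the printed stretch. The starts used for CTSA (45891335) and CLN3 (28492074) lie inside the genes as GENCODE release 29 gives them, whose first bases are 45890144 and 28495575. So do those of ATP6V0D1 (67481157, first base 67481237), GAA (80101581, first base 80101556) and ATP6V1G1 (114587769, first base 114587746). For CLN3, 2 windows held the palindrome. The log2 fold changes of these 7 genes ran from −0.18 for ATP6V1G1 to 0.25 for CTSA, with a median of 0.09. The other genes with a matched window had a median of 0.06. TFEB, a factor that binds this element, stood at 9.03 and 8.84 CPM in wild type and 6.47, 13.7 and 12.7 CPM in the variant libraries, so its groups overlapped. TFE3 was higher, at 72.6 and 97.5 CPM in wild type and 76.3, 93.7 and 107 CPM in the variant. MITF stood at 6.12 and 7.13 CPM against 4.62, 6.77 and 5.99 CPM. The groups of both also overlapped.

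No pump, enzyme or membrane gene passed the test between the genotypes. CPM here is the count scaled to the library's depth by TMM, and the log2 fold change sets the variant against wild type. All 55 genes passed the filter on low counts. By edgeR's quasi-likelihood F test 0 of them were called at an adjusted p of 0.05, and over all 16310 tested genes it was also 0 (0.0%). The smallest adjusted p among the 55 was 0.616. At an unadjusted p under 0.05 there were 2 of the 55 (3.64%), against 7.62% of all tested genes. CTSL was on the higher side, as were 4.11% of all tested genes, and ATP6V0E1 on the lower, as were 3.51%. By DESeq2's Wald test 0 of the 55 had an adjusted p under 0.05, against 0.213% of all genes with an adjusted p. Groups without overlap were found at 11 of the 55 genes (20%), against 24.8% of all tested genes. Of the 11, 6 were higher in the variant and 5 lower, against 11.8% and 13.0% of all tested genes. The shares of the 55 genes at an unadjusted p and without overlap lay under those of all genes. The 95% interval of the log2 fold change lay within −1 and 1, that is within a 2-fold difference, for 50 of the 55 genes and within a 1.5-fold difference for 26.

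**Figure D1:**
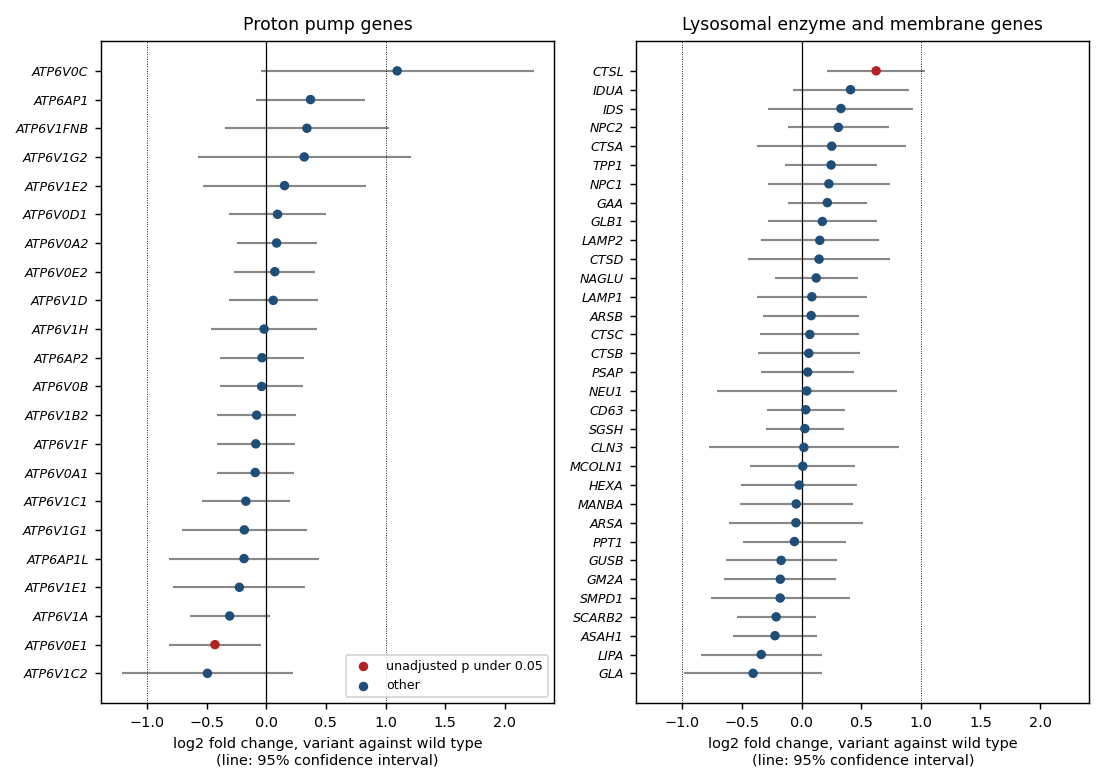
Log2 fold change (x axis, variant against wild type) of each pump gene (left) and each enzyme or membrane gene (right), with its 95% confidence interval as a line and dotted lines at −1 and 1. CTSL, at 0.63, and ATP6V0E1, at −0.43, are the 2 red points with an unadjusted p under 0.05, and all other intervals cross 0.

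The summed level of a class gives its total message. The 22 pump genes summed to 1767 and 2010 CPM in wild type and to 1806, 1847 and 1929 CPM in the variant libraries. The variant sums all lay between the wild-type sums, but those of the sectors did not. The V0 genes summed to 712 and 740 CPM in wild type and 690, 677 and 713 CPM in the variant. The V1 genes summed to 710 and 786 CPM against 643, 645 and 748 CPM. In both sectors variant 1 and variant 2 lay below both wild-type libraries. The remaining pump genes, ATP6AP1 and ATP6AP2 among them, summed to 346 and 484 CPM against 474, 524 and 468 CPM. The 33 enzyme and membrane genes summed to 3081 and 3778 CPM in wild type and to 3523, 3288 and 3800 CPM in the variant. Here 2 of the 3 variant libraries lay between the wild-type libraries, and variant 3 lay just above them. In bulk cultures, a smaller share of cells with a message and less of it in each cell cannot be told apart. The median log2 fold change was −0.04 over the pump genes, 13 of them below 0, and 0.05 over the enzyme and membrane genes, 22 of them above 0. Over all tested genes it was 0.003.

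The V0 sector, which carries the protons, had 7 genes, whose median log2 fold change was 0.07. ATP6V0E1 encodes the small e subunit of the membrane sector (ENSG00000113732, chromosome 5, 172983757 to 173035445, plus strand). It stood at 152 and 119 CPM in wild-type 1 and wild-type 2 and at 90.3, 113 and 98.4 CPM in variant 1, 2 and 3. All 3 variant libraries were below both wild-type libraries, though variant 2 and wild-type 2 were close. The means were 136 ± 23.2 CPM (SD, n = 2) and 101 ± 11.4 CPM (SD, n = 3). EdgeR placed the log2 fold change at −0.43 ± 0.17 (SE, adjusted p = 0.627). Over all alternatives the adjusted p lay between 0.512 and 0.998. Without wild-type 1 the log2 fold change was −0.25, and after a correction for the GC content and the length of transcripts it was −0.28. Its paralogue ATP6V0E2 did not share this order, with 81.5 and 87.9 CPM in wild type and 92.8, 91.4 and 82.8 CPM in the variant.

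Of the V0 genes, ATP6V0A1 and ATP6V0A2 encode alternative forms of subunit a, the part that forms the proton half-channels and steers the pump to different membranes. ATP6V0A1 stood at 143 and 154 CPM in wild type and 148, 129 and 139.6 CPM in the variant, and the groups overlapped. ATP6V0A2 stood at 69.2 and 65.6 CPM against 72.01, 72.96 and 69.7 CPM. Its groups did not overlap, but the log2 fold change was 0.09 (95% interval −0.25 to 0.42). ATP6V0B, a proteolipid of the rotor ring, and ATP6V0D1, which joins the ring to the stalk, had log2 fold changes of −0.04 and 0.09 with overlapping groups.

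ATP6V0C encodes the main proteolipid of the rotor ring (ENSG00000185883, chromosome 16, 2513870 to 2520218, plus strand), and it held the fewest counts of the 55 genes. Per kilobase it was the lowest pump gene, at 0.626 CPM per kilobase. It held 11 and 4 counts in wild type and 17, 17 and 15 in the variant libraries, or 0.641 and 0.228 against 0.982, 0.976 and 0.847 CPM. Both wild-type libraries were below all variant libraries, on these few counts. The log2 fold change was 1.10 (SE 0.51), the widest difference among the 55, which edgeR did not call (adjusted p = 0.657), and it was 0.54 without wild-type 2 and 2.001 without wild-type 1. In GENCODE release 29 exons of other genes on the same strand (AC093525.1 and AC093525.2) cover 72.1% of the exon bases of ATP6V0C. That share was the highest of the 55, and 7 genes had more than 10%. Such bases can be read as belonging to both genes, so the level of ATP6V0C is uncertain. The part of this overlap in the low counts was not tested.

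The V1 sector, which splits ATP, had 11 genes, 8 of them with log2 fold changes below 0, and a median of −0.09. ATP6V1A encodes the catalytic A subunit (ENSG00000114573, chromosome 3, 113747019 to 113812056, plus strand). It stood at 67.9 and 69.9 CPM in wild type and 57.2, 54.9 and 54.9 CPM in the variant. The libraries of each group lay close together and the groups did not overlap. The log2 fold change was −0.31 ± 0.15 (SE; edgeR, adjusted p = 0.659), and its values over all alternatives lay between −0.33 and −0.23. ATP6V1B2, the B subunit that lies between the catalytic subunits, stood at 96.1 and 106 CPM against 99.1, 91.4 and 96.6 CPM, and its groups overlapped.

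The stalks of the V1 sector hold subunits C to H. ATP6V1C1, the subunit that leaves the complex when the pump comes apart, was the only other V1 gene with groups that did not overlap, at 57.8 and 59.5 CPM in wild type and 57.3, 46.04 and 52.9 CPM in the variant. Its log2 fold change was −0.17 (95% interval −0.54 to 0.20). ATP6V1E1, of the outer stalk, varied more within groups than between them, with 121 and 190.0 CPM in wild type and 126, 102 and 171 CPM in the variant. ATP6V1G1, also of the outer stalk, stood at 116 and 85.9 CPM against 67.96, 82.6 and 116 CPM, so wild-type 1 and variant 3 were level with each other. Its log2 fold change was −0.18, and it was 0.03 after the GC and length correction. ATP6V1F, in the central stalk, was the highest pump gene per kilobase of transcript, at 215 CPM per kilobase, with a log2 fold change of −0.09. ATP6V1D of the central stalk and ATP6V1H, a regulator of the ATPase, had log2 fold changes of 0.06 and −0.02.

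**Figure D2:**
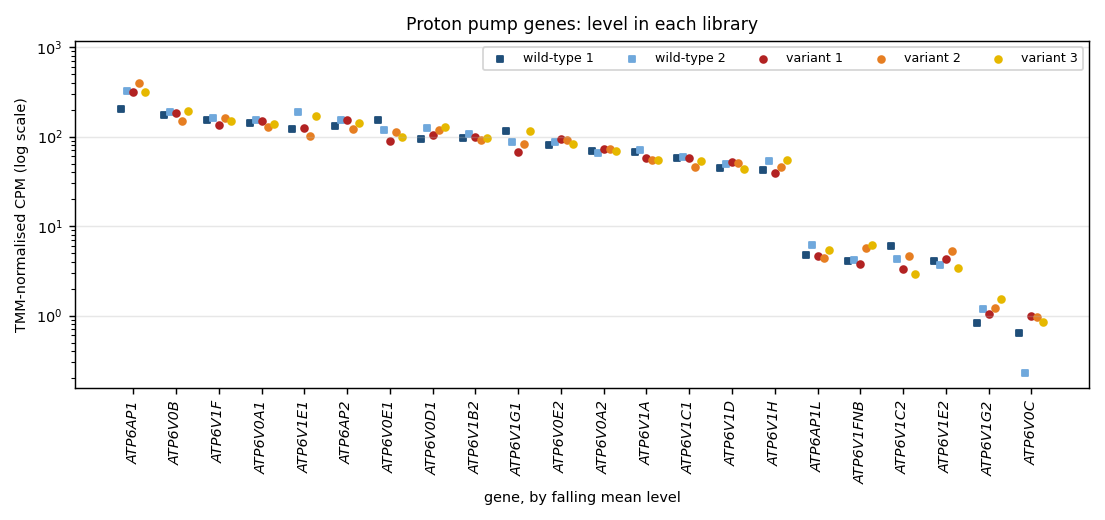
TMM-normalised CPM (y axis, log scale) of the 22 pump genes in each library, with squares for the 2 wild-type and circles for the 3 variant libraries. Every library lies at or above 39.2 CPM in 16 genes and at or below 6.22 CPM in the other 6, with ATP6V0C the lowest, on a scale not divided by length.

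Accessory proteins guide the pump's assembly and its place in the membrane. ATP6AP1, also called Ac45 (chromosome X, 154428632 to 154436516, plus strand), is one of these accessory subunits. It stood at 205 and 321 CPM in wild type and 313, 392 and 315 CPM in the variant, so wild-type 1 was low and wild-type 2 lay among the variant libraries. Variant against wild type gave a log2 ratio of 0.37 ± 0.20 (SE) in edgeR (adjusted p = 0.687). Without wild-type 1 it was 0.08, and without wild-type 2 it was 0.73. ATP6AP2, the prorenin receptor, stood at 132 and 153 CPM against 152, 122 and 141 CPM. The groups overlapped for it and for ATP6AP1L and ATP6V1FNB, which ran from 3.81 to 6.22 CPM in all libraries.

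Several pump subunits have alternative genes, one of which is usually restricted to specialised tissues. Shares within a pair were computed on CPM per kilobase of the longest transcript. ATP6V1G1 made up between 98.97% and 99.5% of the G pair in every library, and ATP6V1E1 made up 97.02% to 98.8% of the E pair. ATP6V1G2, known from neurons, ran from 0.816 to 1.52 CPM. ATP6V1E2, known from testis, ran from 3.39 to 5.22 CPM. The C pair was less one-sided, with ATP6V1C2 at 15.7% and 11.5% in wild type and 9.57%, 15.4% and 8.96% in the variant, where the groups overlapped. ATP6V1C2 stood at 5.95 and 4.28 CPM against 3.35, 4.65 and 2.88 CPM, and its log2 fold change of −0.49 (SE 0.32) was the lowest of the 55. ATP6V0A2 made up 25.7% and 23.3% of the a pair in wild type and 25.7%, 28.7% and 26.2% in the variant. ATP6V0E2 made up 15.6% and 20.3% of the e pair in wild type and 26.2%, 21.9% and 22.5% in the variant. The e share was higher in every variant library than in both wild-type libraries, and the a share of variant 1 was level with that of wild-type 1. With 2 libraries against 3, an exact permutation test of a share cannot go below a one-sided p of 0.1, so none was run.

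**Figure D3:**
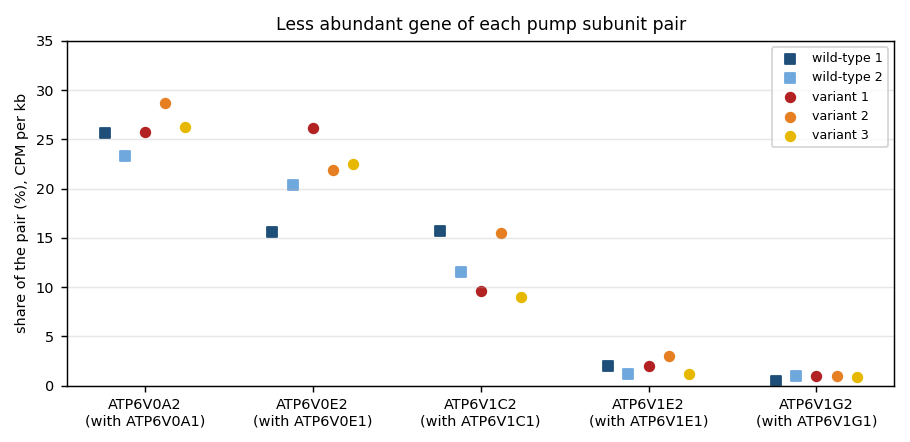
Share in percent (y axis, from CPM per kilobase) of the less abundant gene of 5 pump subunit pairs, 1 point for each library. ATP6V0E2 lies at 15.6% and 20.3% in wild type and at 21.9% to 26.2% in the variant, while ATP6V1E2 and ATP6V1G2 stay under 3% in all libraries.

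Lysosomal membrane proteins, with the soluble NPC2 counted among them, had 8 genes, with 7 log2 fold changes above 0 and a median of 0.06. SCARB2, or LIMP-2, the receptor that brings glucocerebrosidase to the lysosome, was the exception. It stood at 105 and 112 CPM in wild type and 101, 88.6 and 91.6 CPM in the variant, and the groups did not overlap. In edgeR's fit the log2 fold change was −0.21 ± 0.15 (SE, adjusted p = 0.735). LAMP1 and LAMP2 form much of the protein coat of the membrane's inner face. LAMP1 stood at 141 and 207 CPM against 196, 149 and 209 CPM, a spread that each group spanned. LAMP2 was highest in variant 2, at 208 CPM, and lay between 121 and 147 CPM in the other libraries. It lies on chromosome X, whose log2 level against the 5-library mean was 0.02 and −0.06 in wild type and −0.08, 0.18 and −0.05 in the variant. Also on X, ATP6AP1, GLA and IDS had their highest variant value in variant 2, while ATP6AP2 was lowest there. The part of the chromosome level in the values of these genes was not tested. CD63, a tetraspanin of late endosomes, was among the highest of the 33 genes per kilobase, at 251 CPM per kilobase, with 281 and 328 CPM in wild type and 321, 281 and 334 CPM in the variant.

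NPC2 and NPC1 pass cholesterol from the lumen to the membrane. NPC2 (chromosome 14, 74476192 to 74494177, minus strand) stood at 57.2 and 77.3 CPM in wild type and 91.9, 85.3 and 72.6 CPM in the variant, so wild-type 2 lay above variant 3. The log2 fold change was 0.31 ± 0.19 (SE). The median over all tested genes of chromosome 14 was also 0.31, and the level of that chromosome against the 5-library mean was −0.16, −0.17, 0.28, 0.28 and −0.22 on the log2 scale in wild-type 1, wild-type 2, variant 1, variant 2 and variant 3. The value of NPC2 was 0.11 without wild-type 1, and it was 0.54 when wild-type 2 was left out. The part of the chromosome level in the values of NPC2 was not tested. NPC1 stood at 81.4 and 96.9 CPM against 131, 74.7 and 108 CPM. Its chromosome, 18, had a log2 level of −0.04 and −0.12 in wild type and 0.19, −0.19 and 0.20 in the variant. The part of that level in the values of NPC1 was not tested. MCOLN1, the calcium channel of the lysosome, had a log2 fold change of 0.01 (95% interval −0.43 to 0.45). CLN3, the gene of juvenile Batten disease, held only 21 to 27 counts in each library, and exons of another gene on its strand (AC138894.1) cover 25.2% of its exon bases.

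Cathepsins and the enzymes TPP1 and PPT1, which act on proteins, had 7 genes whose median log2 fold change was 0.15. CTSL encodes cathepsin L, a cysteine protease (ENSG00000135047, chromosome 9, 87725519 to 87731393, plus strand). It stood at 64.2 and 87.2 CPM in wild type and 107, 130.1 and 114 CPM in the variant. All variant libraries lay above both wild-type libraries. The means were 75.7 ± 16.2 CPM (SD, n = 2) and 117 ± 12.04 CPM (SD, n = 3). The log2 fold change was 0.63 (SE 0.18, 95% interval 0.21 to 1.04) and the adjusted p was 0.616 by edgeR and 0.243 in DESeq2's Wald test, and over all alternatives the adjusted p ran from 0.243 to 0.998. Without wild-type 1 the log2 fold change was 0.42, and without wild-type 2 it was 0.86. The median log2 fold change of the 662 tested genes on chromosome 9 was 0.35, and the level of that chromosome against the 5-library mean was −0.19, −0.19, −0.07, 0.28 and 0.18 in wild-type 1, wild-type 2, variant 1, variant 2 and variant 3. The part of the chromosome level in the value of CTSL was not tested. ATP6V1G1, on the same chromosome, had a log2 fold change of −0.18, and 0.03 after the GC and length correction. DPP7, RRAGA, CTSV and TSC1, of the other lists read below and also on chromosome 9, had 0.73, 0.36, 0.35 and 0.25.

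TPP1, a tripeptidyl peptidase, was the other gene of this class with groups that did not overlap. It stood at 34.6 and 41.2 CPM in wild type and 48.5, 43.6 and 42.9 CPM in the variant, with a log2 fold change of 0.25 (SE 0.17). CTSD, the aspartic protease cathepsin D, spread from 57.004 CPM in wild-type 1 to 109 CPM in variant 3, with wild-type 2 at 89.02 CPM. Exons of another gene on its strand (AC068580.4) cover 41.7% of its exon bases. CTSA, which protects other hydrolases in a complex, ran from 39.04 CPM in variant 2 to 82.01 CPM in variant 1, both variant libraries. Its chromosome, 20, had a log2 level of −0.12 and −0.08 in wild type and 0.37, −0.12 and −0.05 in the variant. The part of that level in the values of CTSA was not tested. CTSB, CTSC and PPT1 had log2 fold changes of 0.06, 0.07 and −0.06, and their groups overlapped.

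The hydrolases of glycans and glycosaminoglycans were 12 genes whose median log2 fold change was 0.06, 8 above 0 and 4 below. GAA, acid alpha-glucosidase, the enzyme missing in Pompe disease, stood at 134 and 146 CPM in wild type and 158, 151 and 178 CPM in the variant. Its groups did not overlap, and edgeR gave a log2 fold change of 0.22 ± 0.15 (SE, adjusted p = 0.730). After the GC and length correction the log2 fold change was 0.045. IDUA, alpha-L-iduronidase, which is deficient in Hurler disease, stood at 10.1 and 11.2 CPM against 13.6, 15.7 and 13.3 CPM, without overlap. EdgeR placed the log2 fold change at 0.41 ± 0.22 (SE, adjusted p = 0.679), and 0.22 after the same correction. Of the 55 genes IDUA had the highest GC content of its longest transcript, at 69.3%.

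GLA, alpha-galactosidase A, the enzyme missing in Fabry disease, spread widely within the variant group. It stood at 134 and 162 CPM in wild type and at 79.9, 157 and 98.6 CPM in the variant, with variant 2 between the wild-type libraries. Its log2 fold change of −0.41 (SE 0.26) was the lowest of the 33 enzyme and membrane genes, and it was −0.21 without variant 1 and −0.73 without variant 2. NEU1, the lysosomal sialidase, was low in wild-type 1, at 88.7 CPM, and in variant 2, at 71.9 CPM, and lay between 146 and 152 CPM in the other 3 libraries. GUSB, beta-glucuronidase, ran from 107 CPM in variant 2 to 178 CPM in variant 3. IDS, iduronate-2-sulfatase, stood at 6.18 and 7.58 CPM in wild type and 6.94, 10.3 and 8.75 CPM in the variant. GLB1, beta-galactosidase, and NAGLU, which acts on heparan sulfate, had log2 fold changes of 0.17 and 0.12. SGSH, which also acts on heparan sulfate, was among the steadiest, between 89.9 and 95.8 CPM in all 5 libraries. HEXA, MANBA and ARSB had log2 fold changes from −0.04 to 0.08 with overlapping groups.

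The enzymes and activators of sphingolipid and lipid breakdown were 6 genes, 5 of them with log2 fold changes below 0 and a median of −0.18. PSAP encodes prosaposin, the precursor of the saposins that lift lipids to their hydrolases, and it had the highest level of the 55 genes, at 252.5 CPM per kilobase. It stood at 615 and 804 CPM in wild type and 649, 685 and 873 CPM in the variant, with a log2 fold change of 0.05. ASAH1, acid ceramidase, stood at 81.9 and 79.04 CPM against 73.7, 61.9 and 71.3 CPM, the sole gene of this class without overlap. Variant against wild type gave a log2 ratio of −0.22 ± 0.16 (SE) in edgeR (adjusted p = 0.735), and it was −0.08 after the GC and length correction. LIPA, the lysosomal acid lipase, stood at 66.9 and 49.7 CPM in wild type and 56.8, 46.3 and 35.4 CPM in the variant, with variant 1 between the wild-type libraries. GM2A, the activator of ganglioside breakdown, had a log2 fold change of −0.18, as did SMPD1, acid sphingomyelinase. ARSA, arylsulfatase A, stood at 43.02 and 75.6 CPM in wild type, which spanned its variant values of 55.8, 48.2 and 68.3 CPM. It also lies on chromosome 22, with log2 levels of −0.26 and 0.17 in wild type and 0.10, −0.19 and 0.20 in the variant. The part of those levels in the values of ARSA was not tested.

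**Figure D4:**
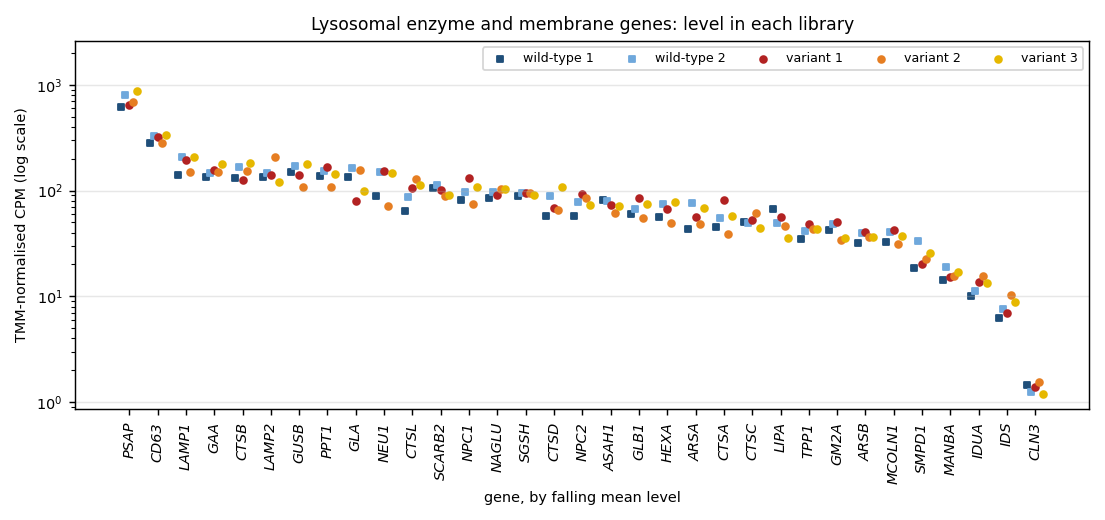
TMM-normalised CPM (y axis, log scale) of the 33 enzyme and membrane genes in each library, with squares for wild type and circles for the variant. PSAP is the highest, at 615 to 873 CPM, CLN3 the lowest, at 1.19 to 1.55 CPM, on a scale not divided by length, and in 27 genes the groups overlap.

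At most of these genes the step between the wild-type libraries was larger than the difference between the genotype means. A step between single libraries varies more than a difference between means of 2 and 3 libraries. A larger step at most genes would thus be found without any genotype difference, and no conclusion is drawn from the share of such genes. In 29 of the 33 enzyme and membrane genes wild-type 2 was above wild-type 1, with a median log2 step of 0.25, while over all tested genes 47.2% were above and the median step was −0.03. The step between the wild-type libraries was larger than the log2 fold change between groups in 22 of these 33 genes (66.7%), in 15 of the 22 pump genes (68.2%) and in 58.3% of all tested genes. Wild-type 1 was the lowest library in 16 of the 33 enzyme and membrane genes, against 22.1% of all tested genes, and variant 2 was the lowest in 11. Wild-type 2 was the lowest in 0 of them. In the pump genes the lowest library was spread over all 5, with 4, 2, 5, 7 and 4 genes in wild-type 1, wild-type 2, variant 1, variant 2 and variant 3.

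Set against the 5-library mean, the median of the enzyme and membrane genes was −0.19 in wild-type 1 and 0.10 in wild-type 2 on the log2 scale, and 0.05, −0.07 and 0.09 in variant 1, 2 and 3. The variant libraries lay between the wild-type libraries. The median log2 fold change was therefore of either sign according to the wild-type library kept, 0.24 without wild-type 2 and −0.10 without wild-type 1. For the pump genes the library medians were −0.04 and 0.09 in wild type and −0.03, 0.03 and 0.01 in the variant. Their median log2 fold change was −0.12 without wild-type 1 and 0.06 without wild-type 2. GC content moved with the classes, with a median of 51.6% over the enzyme and membrane genes, 45.3% over the pump genes and 48.6% over all tested genes. After the GC and length correction the median log2 fold changes were −0.02 for the enzyme and membrane genes and −0.01 for the pump genes.

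**Figure D5:**
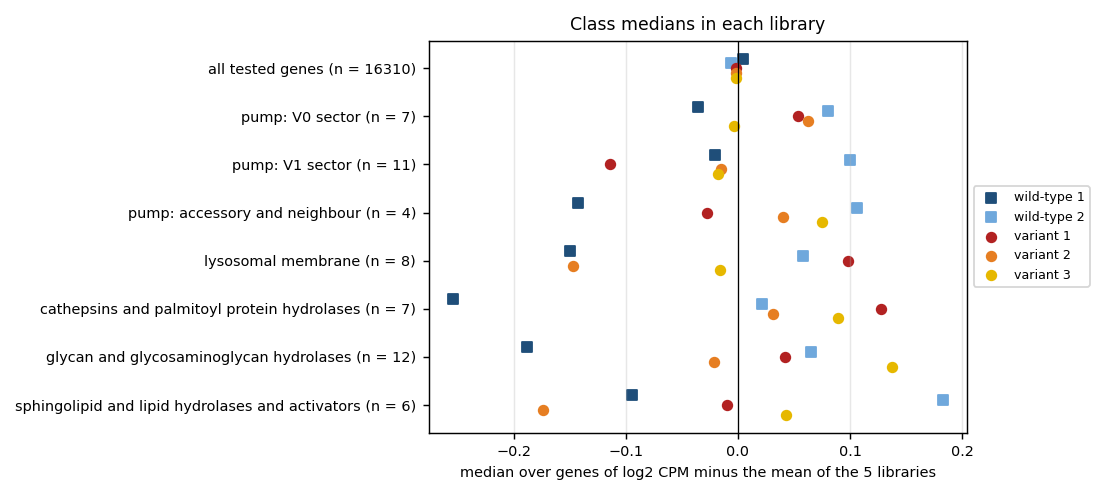
Median over the genes of each class of the log2 CPM minus the mean of the 5 libraries (x axis), 1 point for each library. Wild-type 1 lies at −0.25 for the cathepsin class and at −0.19 for the glycan hydrolases, where wild-type 2 lies at 0.02 and 0.07.

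Genes that make, sort or regulate the lysosome were read from written lists. EdgeR called 0 of the 102 tested genes in the 6 lists at an adjusted p of 0.05, and 2 had an unadjusted p under 0.05, against 7.62% of all tested genes. The first, CLN6, encodes a membrane protein of the endoplasmic reticulum that helps lysosomal enzymes leave it. It stood at 66.1 and 66.5 CPM in wild type and 125, 111 and 87.7 CPM in the variant, without overlap. In edgeR's fit the log2 fold change was 0.70 ± 0.18 (SE, adjusted p = 0.616). The adjusted p was 0.130 in DESeq2's Wald test and ran from 0.130 to 0.998 over all alternatives. LAMTOR3, the other, is part of the Ragulator complex that holds mTORC1 to the lysosome. It stood at 31.7 and 30.1 CPM in wild type and 22.5, 18.1 and 22.5 CPM in the variant. EdgeR placed the log2 fold change at −0.56 ± 0.19 (SE, adjusted p = 0.616).

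Within the Ragulator, Rag GTPase and mTORC1 list 9 of 16 genes had log2 fold changes above 0, with a median of 0.05. LAMTOR5 and RRAGC, of the same complexes, had log2 fold changes of −0.29 and −0.34 with groups that did not overlap. RRAGA and LAMTOR2 went the other way, at 0.36 and 0.20 with overlapping groups, and TSC1 and TSC2 had 0.25 and 0.22 without overlap. In this list 2 genes were higher and 3 lower without overlap (31.25%), against 24.8% of all tested genes. The list of pump assembly and regulation genes had 8 of 11 below 0 and a median of −0.21. CCDC115, an assembly factor of the pump, stood at 45.1 and 44.5 CPM in wild type and 36.8, 35.3 and 33.8 CPM in the variant, and edgeR gave a log2 fold change of −0.34 ± 0.16 (SE, adjusted p = 0.657). OXR1, a TLDc protein of the kind that binds the pump, had −0.32, and WDR7, a part of the assembly factor rabconnectin-3, had 0.36. After the GC and length correction the median of this list was −0.13.

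The other soluble lysosomal enzymes had 18 of 30 log2 fold changes above 0 and a median of 0.05. LGMN, the asparaginyl endopeptidase legumain, stood at 33.8 and 56.6 CPM in wild type and 82.1, 68.6 and 50.2 CPM in the variant, so its groups overlapped. CTSK and PLBD2 had log2 fold changes of 0.58 and 0.30 with no overlap, CTSK on 1.92 to 3.73 CPM. Other membrane proteins and transporters had 13 of 24 above 0 and a median of 0.02. LAPTM4A, a membrane protein of late endosomes, stood at 221 and 239.6 CPM against 195, 212 and 153 CPM. PLD3, a lysosomal exonuclease, had a log2 fold change of 0.28 with overlapping groups.

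Sorting by mannose 6-phosphate brings the new enzymes from the Golgi to the lysosome, and its list had 5 of 14 log2 fold changes above 0 and a median of −0.02. IGF2R, the large mannose 6-phosphate receptor, stood at 177 and 180.4 CPM in wild type and 308, 209 and 192 CPM in the variant. Both wild-type libraries were below all variant libraries, and variant 1 stood apart. Variant against wild type gave a log2 ratio of 0.40 ± 0.21 (SE) in edgeR (adjusted p = 0.670). Without variant 1 it was 0.16, and it was 0.20 after the GC and length correction. GGA2 and AP1M1, of the coats that carry the receptor, had log2 fold changes of −0.12 and 0.14. Of the 7 transcription factors and regulators 3 were above 0, with a median of −0.01, and FNIP1 and ZKSCAN3 had −0.32 and 0.17 with overlapping groups.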

How the data were processed

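RNA sequencing counts were used for 2 wild-type and 3 variant HEK293 libraries. Per the labels, RNA was taken with TRIzol, and strand-specific mRNA libraries were read as single ends of 50 bases on DNBSEQ. The submitters' processing notes name HISAT2, SAMtools, HTSeq and hg38. Their versions, the annotation and the strand setting are not given in the sources used here. The authors deposited whole-number counts per gene. The lowest count in the table is 3 and the lowest gene total 17, so genes with fewer reads are not analysed here. Of 16677 gene IDs, 16627 had a symbol in the gene name table and 16565 a place in GENCODE release 29 (GRCh38).

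The genes and lists were chosen with earlier results of these data known. Counts were filtered with filterByExpr by group, scaled by TMM and tested with edgeR 4.0.16's quasi-likelihood F test (robust), with Benjamini-Hochberg adjustment over all 16310 tested genes. DESeq2 1.42.0 and limma-voom (limma 3.58.1, R 4.3.3) were alternatives, as were other scalings and filters, a replicate block, a correction for the GC content and the length of transcripts, subtraction of chromosome medians and leaving out each library. The fit was tested on simulated data with 200 changed genes. At an adjusted p under 0.05 it recovered 12% of 1.5-fold, 40.8% of 2-fold, 90% of 4-fold and 97.9% of 8-fold changes. Of its 132 calls, 14 were false. Intervals of the fold changes are 95% intervals. Levels per kilobase used the longest transcript.

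Genes named were those with an adjusted p under 0.05, the 12 pump and 16 enzyme or membrane genes with the smallest p, the 2 highest and 2 lowest per kilobase in each class, both genes of each subunit pair, and up to 3 with the smallest p in each other list. Further genes are named in passing to account for every gene. Deviations from the group means correlated at 0.12 and −0.11 for same-numbered libraries, and at 0.11 and −0.12 for crossed ones. The deviations of the 2 wild-type libraries mirror each other. These values therefore cannot decide whether replicate numbers pair the libraries. No 2 libraries agreed within sampling noise.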

Additional observations from a re-analysis of the deposited data

How the results depend on the processing

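None of the 55 genes had an adjusted p under 0.05 in any setting run, and the smallest was 0.243. Over all genes DESeq2 called 32, and leaving out 1 library gave 0 to 4 in edgeR's test, 1 without wild-type 1 and 4 without variant 3, against 0 with all libraries. Of the 55 genes, 2 had an unadjusted p under 0.05, and leaving out 1 library gave 1 to 4: ATP6V0C alone without wild-type 1, CTSL alone without variant 3, and ATP6AP1, ATP6V0E1, CTSL and NPC2 without wild-type 2. With the replicate block 0 genes were called, though whether replicate numbers pair the libraries is not known. In edgeR's test with this block 1557 of all genes had an unadjusted p under 0.05, against 1243 without it. Of the 55 genes 2 did, ATP6AP1 and CTSL. Without wild-type 1 that count over all genes was 549, and without variant 2 it was 765.

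The median log2 fold change of the pump genes was −0.04 and lay at −0.12 without wild-type 1 and at 0.061 without wild-type 2. It was −0.01 after subtraction of chromosome medians, −0.01 after the GC and length correction, −0.09 with the replicate block, −0.06 without genes under a mean of 10 CPM and −0.04 without ATP6V1FNB and ATP6AP1L, the last 2 settings chosen after seeing the data. The median of the enzyme and membrane genes was 0.05 and lay at −0.10 without wild-type 1 and at 0.24 without wild-type 2. It was 0.07 after subtraction of chromosome medians, −0.02 after the GC and length correction, −0.005 with the replicate block and 0.05 without genes under 10 CPM.

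Of 59 named genes 14 changed sign in at least 1 alternative, in 27 of 766 values, and the cause was not tested. Leaving out 1 library moved the log2 fold change of 48 of the 59 by over 1.5 times, sign changes included. After the GC and length correction the log2 fold change was −0.024 for AP1M1, 0.032 for ATP6V1G1, −0.11 for CLN3, −0.19 for COL1A1, −0.013 for NAGLU and −0.023 for PSAP. With the replicate block it was −0.015 for CD63, −0.095 for COL1A1 and −0.077 for PSAP. Leaving out 1 library, it ran from −0.37 to 0.025 for ATP6AP1L, −0.51 to 0.13 for ATP6V1E1, −0.011 to 0.30 for ATP6V1E2, −0.42 to 0.047 for ATP6V1G1, −0.072 to 0.15 for CD63, −0.084 to 0.13 for CLN3, −0.29 to 0.42 for COL1A1, −0.40 to 0.14 for COL3A1, −0.051 to 0.48 for CTSA, −0.60 to 0.038 for FNIP1, −0.10 to 0.55 for KRT8 and −0.13 to 0.26 for PSAP. ATP6V0C has no value with at least 10 counts in every library and no adjusted p from DESeq2. With 2 wild-type libraries the spread of that group rests on 1 difference, and without either of them the other is assumed to vary like the variant libraries. The 95% interval reached past a 1.5-fold difference for all but 26 of the 55 genes.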

Other observations

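Beside the 22 protein-coding pump rows, the table held 5 rows of other kinds whose symbols share the prefixes. ATP6V0D1-DT, a divergent transcript beside ATP6V0D1, was lower in every variant library than in both wild-type libraries, with a log2 fold change of −0.23. ATP6AP1-DT and ATP6V0E2-AS1, the antisense transcript at ATP6V0E2, had log2 fold changes of −0.15 and −0.10. The pseudogenes ATP6V1E1P1 and ATP6V1E1P3, which share sequence with ATP6V1E1, had −0.56 and −0.08. EdgeR's quasi-likelihood F test called 0 of the 5 at an adjusted p of 0.05, and their adjusted p ran from 0.784 to 0.966. Whether some reads of ATP6V1E1 were counted to these pseudogenes, or the reverse, was not tested. The strand setting is not given, so whether reads of the opposite strand were kept apart is not known.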
